A study of Saccharomyces cerevisiae with 7 samples.

Results

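The proteins of the yeast mitochondrial ribosome are encoded, with few exceptions, by nuclear genes, translated in the cytosol and imported. In the mitochondrion they assemble with ribosomal RNA made from mitochondrial DNA, and the finished ribosome translates the few mRNAs of that genome, most of which encode core subunits of the respiratory chain and ATP synthase. Puf3, a Pumilio-family RNA-binding protein, is known in yeast for binding the 3′ UTRs of mRNAs for mitochondrial proteins, those of the mitochondrial ribosome among them. Its relatives Puf1, Puf2, Puf4, Puf5 and Puf6 are known mainly for other mRNAs. The data described here concern the relatives and the levels of mitoribosomal mRNAs in a strain labelled as lacking Puf3.

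Mitoribosomal genes were taken as those whose standard symbol in a RefSeq gene table is MRPL, MRPS or RSM followed by a number. This gave 54 genes, 34 of the large subunit (MRPL) and 20 of the small subunit (9 MRPS and 11 RSM), of 5521 in the background. The background was every protein-coding gene whose RPKM (reads per kilobase of gene, scaled to library size) reached 1. No mitoribosomal gene was lost to that minimum. They lay on 14 chromosomes, and MRPS12 and RSM19 (chromosome XIV, 229 nt between them) were the only pair next to each other in gene order.

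The study measured RNAs crosslinked to each of 5 Puf proteins by CLIP and mRNA levels by sequencing of polyA RNA. In CLIP an RNA-binding protein is crosslinked to RNA in living cells and purified, and the fragments it protected are sequenced. Each CLIP strain was of mating type a with the alleles his3Δ1, leu2Δ0, met15Δ0 and ura3Δ0 and carried Puf1, Puf2, Puf4, Puf5 or Puf6 with a TAP tag at its own gene, marked with HIS5. Per the labels, these cells grew at 30 °C in synthetic defined medium, with 4-thiouracil at 200 µM where indicated, and then received 4 doses of ultraviolet light (365 nm, 150 mJ/cm2 each). The mRNA-seq strain was BY4742 labelled puf3Δ::KAN, grown in the same medium, with polyA RNA taken from extracts depleted of ribosomes. Its labels differ on whether these cells were irradiated. Its 2 samples were deposited as 1 joined RPKM value per gene. Each Puf protein had 1 library, and no untagged or wild-type library was used here. No difference below therefore has a replicate check, none was tested, and the RPKM values carry no SD.

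The label of the deletion was checked first. PUF3 itself was listed at 23.6 RPKM, at percentile 19.2 of the background, so its mRNA was not absent from the joined column. LYS2, a lysine synthesis gene that BY4742 is known to lack, was listed at 0. STE3, the receptor gene of α cells, stood at 261 RPKM and STE2, the receptor gene of a cells, at 5.61 RPKM. The strain is called the strain labelled puf3Δ throughout, and with no wild-type library no level below can be read as an effect of losing Puf3. The number of called mRNA sites was 435 for Puf1 and 438 for Puf6, against 1032 for Puf2, 1792 for Puf4 and 2264 for Puf5, so a gene had unequal chances of a site in the 5 libraries.

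Mitoribosomal mRNAs formed a band of moderately abundant messages. Their RPKM ran from 47.7 to 399.7 with a median of 115, against a background median of 60.4. The median mitoribosomal gene stood at percentile 72.1 of the background. Above the background median were 48 of the 54 genes, and none lay below the 25th percentile of the background (29.5 RPKM). A single gene, MRPS9, was above the 90th percentile of the background. The 90th percentile was 4.31 times the 10th percentile, while the same ratio was 28.5 over the background. A narrow range was not particular to these genes. The ratio was 3.4 for mitoribosomal genes with other names, 2.69 for mitochondrial tRNA synthetases and 4.93 for nuclear genes of oxidative phosphorylation. For the cytosolic ribosome it was 7.3, for a list of mitochondrial translation factors and related genes 7.86 and for assembly factors of the mitochondrial ribosome 9.93. Together the 54 genes took 0.713% of the summed RPKM of the background, against 19.7% for the 137 genes of the cytosolic ribosome.

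**Figure D1:**
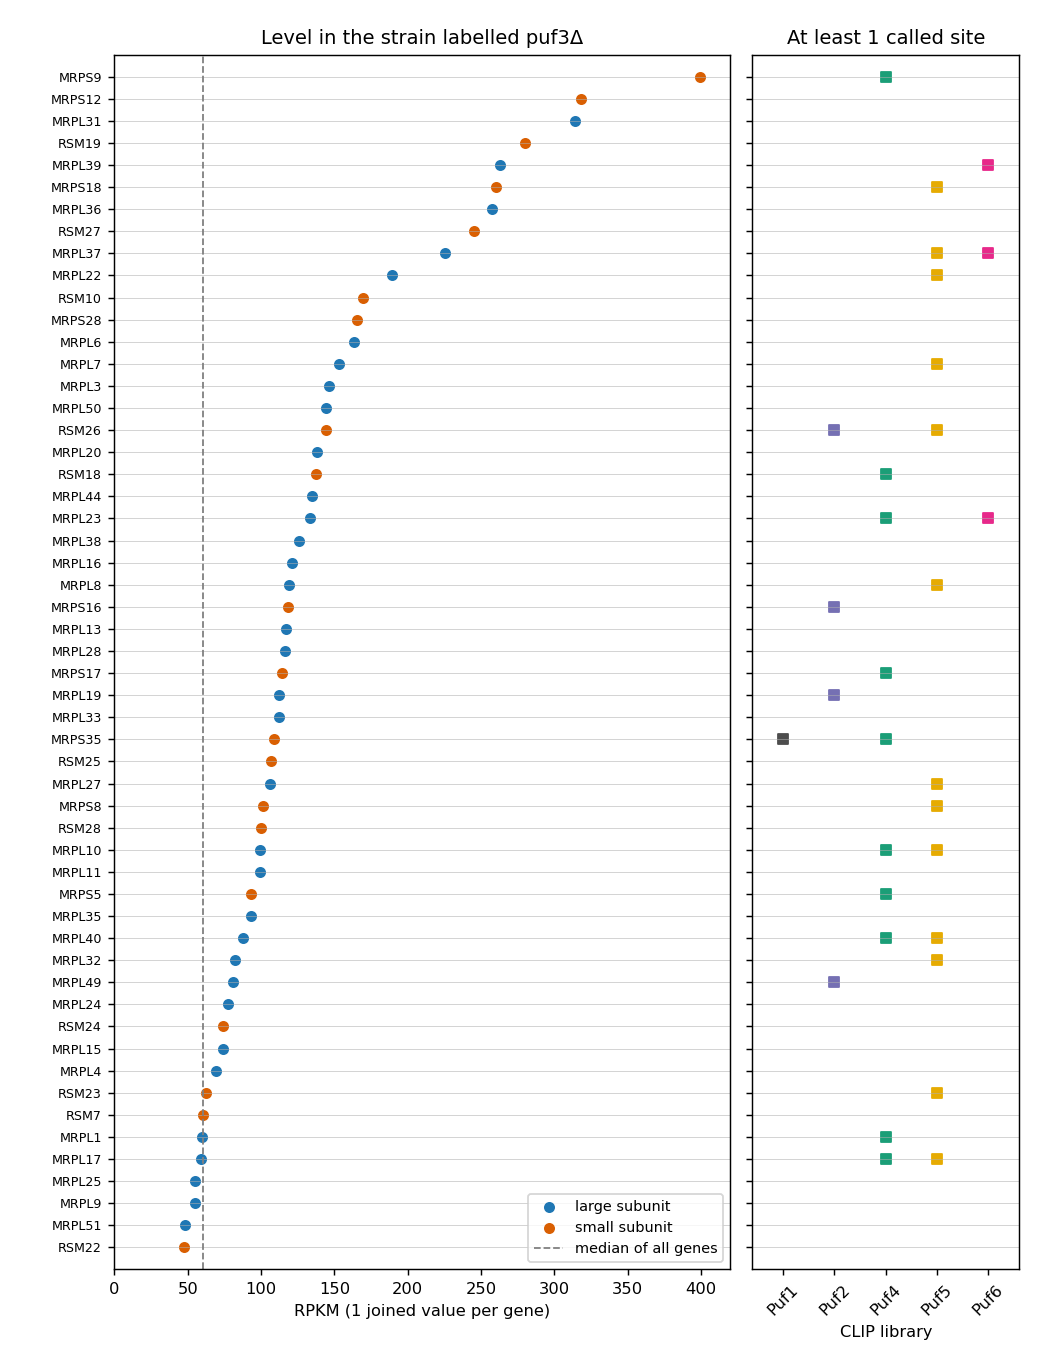
RPKM of each of the 54 mitoribosomal genes (left, x axis, linear) in the strain labelled puf3Δ, coloured by subunit, with the median of all 5521 genes as a dashed line, and the CLIP libraries with at least 1 called site in the gene (right, squares). The genes run from 399.7 RPKM in MRPS9 to 47.7 RPKM in RSM22. Squares occur from MRPS9 down to MRPL17 (58.9 RPKM), and the genes below MRPL17 have none.

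The most abundant were MRPS9 and MRPS12 of the small subunit, at 399.7 and 318 RPKM. MRPS12 is the relative of the bacterial protein that lines the decoding centre. MRPL31, a protein found only in mitochondrial ribosomes, followed at 314 RPKM. RSM19, which neighbours MRPS12 on the chromosome, had 279.9 RPKM, MRPL39 263 RPKM and MRPS18 260.0 RPKM. MRPL36 (257 RPKM) and RSM27 (245 RPKM) completed the 8 highest. At the other end were MRPL17 (58.9 RPKM), MRPL25 (55.1 RPKM), MRPL9 (54.9 RPKM), MRPL51 (48.0 RPKM) and RSM22 (47.7 RPKM). MRPL9 is the relative of a universal large subunit protein near the peptidyl transferase centre, and RSM22 resembles methyltransferases. Proteins of 1 ribosome thus had mRNA levels up to 8.37 times apart on the RPKM scale, which is per length.

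The number of reads behind these values could be estimated from the steps on which the lowest RPKM values of the column fell. It was 6509 to 7102 reads over both samples for MRPS9 and 395 to 431 reads for MRPL51, the lowest of the 54. Counting error alone was then about 1.24% for MRPS9 and 5.03% for MRPL51. Neighbours in the order such as MRPS12 and MRPL31, or MRPL51 and RSM22, differed by less than that, while the distance from the 8 highest to the 5 lowest was far larger. Variation between the 2 samples was not measurable from the joined column.

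Large and small subunit genes had nearly the same median, 114 RPKM (n = 34) and 116 RPKM (n = 20). Of the 9 genes above 200 RPKM, 4 were of the large and 5 of the small subunit. Those 9 genes were short, from 213 to 837 nt, and over all 54 genes RPKM and gene length had a Spearman correlation of -0.4. Over the background it was -0.12. Both are descriptions across genes of the same joined libraries, without a test. RefSeq also lists the family names of ribosomal proteins, in which u marks a family found in all life, b a family shared with bacteria and m a family of mitochondria alone. The median was 118 RPKM for 24 universal, 119 RPKM for 9 bacterial and 108 RPKM for 20 mitochondria-specific proteins, and RSM22 had no such name.

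**Figure D2:**
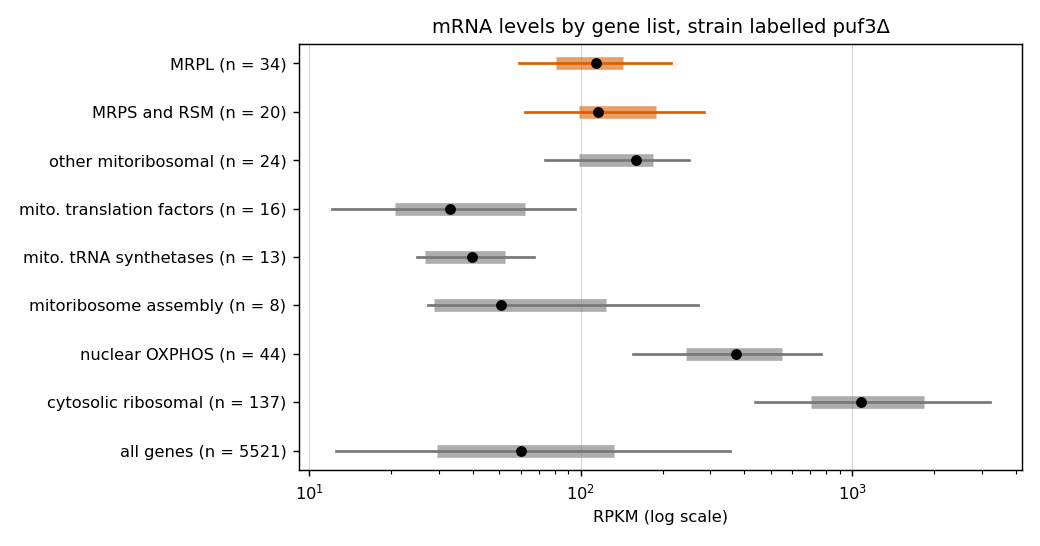
RPKM by gene list in the strain labelled puf3Δ on a log axis, with the median (dot), the 25th to 75th percentile (thick bar) and the 10th to 90th percentile (thin line). Both groups of mitoribosomal genes are MRPL (median 114) and MRPS with RSM (median 116). They lie above the list of mitochondrial translation factors and related genes (32.9). They lie below the nuclear genes of oxidative phosphorylation (374) and the cytosolic ribosome (1080).

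Other genes of mitochondrial translation were set beside them from lists fixed by symbol. A further 24 mitoribosomal genes with other names, such as MRP1 or NAM9, had a median of 160.0 RPKM. A list of translation factors and related genes had a median of 32.9 RPKM (n = 16). Beside factors such as TUF1 and MEF1, it held RMD9 and genes that act on tRNA (FMT1, GTF1, HER2, PET112, MTO1 and MSS1). Genes of tRNA synthetases had 39.7 RPKM (n = 13) and assembly factors of the mitochondrial ribosome 50.6 RPKM (n = 8). The elongation factor gene TUF1 stood apart from the rest of its list at 752 RPKM. Nuclear genes of oxidative phosphorylation had a median of 374 RPKM (n = 44). The 137 genes of the cytosolic ribosome had 1080 RPKM.

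Sites of the 5 Puf proteins were found in 24 of the 54 mitoribosomal genes, 44.4%, against 42.1% of the background. The other 30 had no called site in any library. A gene was counted as bound when at least 1 site in its coding sequence or a UTR carried its name in a list deposited by the authors. Puf5 had sites in 13 mitoribosomal genes (24.1%, background 25.0%) and Puf4 in 10 (18.5%, background 19.7%). Puf2 had sites in 4 genes (7.41%, background 11.7%), Puf6 in 3 (5.56%, background 6.34%) and Puf1 in 1 (1.85%, background 5.81%). In every library the count was thus near, or for Puf1 and Puf2 below, the number that the background share gives, which is 3.14 genes for Puf1 and 6.34 for Puf2.

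Sites were called more often in abundant mRNAs. At the shares of background genes in the same of 10 equal bins by RPKM, 15.6 mitoribosomal genes would have a Puf5 site, 12.2 a Puf4 site and 27.0 a site of any protein. At the shares in bins of both RPKM and gene length these numbers were 15.4, 12.2 and 25.0. The observed 13, 10 and 24 lay a little below both sets of numbers. In bins of gene length alone the numbers were 12.8, 9.69 and 20.7, and the observed counts lay above them. The side on which the counts fell thus depended on the bins. Mitoribosomal genes with a site had a median of 113 RPKM and those without a site 117 RPKM, while over the background the medians were 102 and 43.6 RPKM. Of the 10 mitoribosomal genes between 166 and 355 RPKM, 4 had a site, and 62.3% of all genes in that bin did. Between 78.6 and 107 RPKM it was the other way, with 7 of 11 mitoribosomal genes and 46.7% of all genes.

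**Figure D3:**
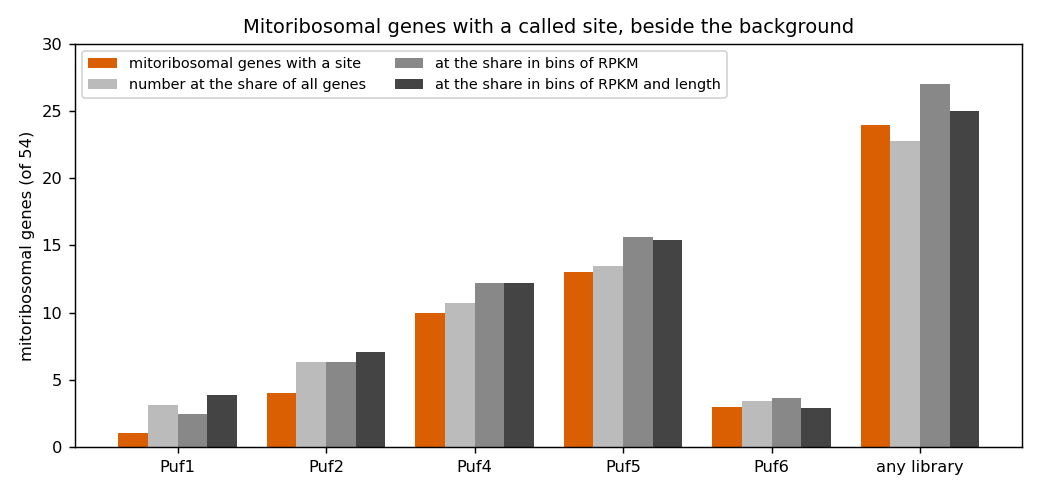
Number of mitoribosomal genes with at least 1 called site (orange, of 54) per CLIP library and in any library, beside the number given by the share of all genes (light grey), by the shares in 10 bins of RPKM (mid grey) and by the shares in bins of RPKM and gene length (dark grey). The orange bars, 1, 4, 10, 13, 3 and 24 genes, stand at or below the height of most grey bars.

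The 24 genes held 35 sites, of which 23 lay in the 3′ UTR, 9 in the coding sequence and 3 in the 5′ UTR. A single site was present in 15 genes. Sites of 2 proteins were present in 7 genes (MRPL10, MRPL17, MRPL23, MRPL37, MRPL40, MRPS35 and RSM26), 13.0% against 9.51% of the background. RSM26 is among them only through a Puf5 site that lies mostly on a tRNA gene. No gene had sites of 3 or more proteins, which 6.83% of the background did. That share was not matched for level. Every library had its highest share of bound genes in the top of the 10 bins by RPKM, which held 1 mitoribosomal gene. By subunit, 14 of 34 large subunit genes and 10 of 20 small subunit genes had a site. Genes of universal or bacterial families had a site in 18 of 33 cases and mitochondria-specific ones in 6 of 20. The contrast by family was seen after the values were known and was not tested.

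Puf4 had sites near the 90th percentile of all mRNA sites of its own library in the 3′ UTRs of 4 genes. Puf5 (in MRPL8) and Puf6 (in MRPL23) had 1 such site each. RPM gives the reads of a site scaled to the size of its library. MRPL10, a universal large subunit protein, had 1024 RPM (sacCer3, chromosome XIV, 103079 to 103105, minus strand), which ranked 132 of the 1792 mRNA sites of Puf4. MRPL17 had 991 RPM (chromosome XIV, 171335 to 171360, minus strand), with rank 149. MRPL23, another universal large subunit protein, had 982 RPM (chromosome XV, 612534 to 612560, plus strand), with rank 155. MRPS35, a mitochondria-specific small subunit protein, had 888 RPM (chromosome VII, 830238 to 830260, plus strand), with rank 212. These 4 lay above the median of 625 RPM of all 3′ UTR sites of Puf4. Within that class they stood around the 75th percentile of 973 RPM, with MRPS35 under it, and below the 90th percentile of 2050 RPM. They did not sit on the most abundant messages, since their genes had 58.9 to 133 RPKM, and MRPL17 was among the 5 lowest mitoribosomal genes. Relative to its RPKM, the MRPL17 site gave 16.8 RPM per RPKM, at percentile 95.9 of Puf4 mRNA sites by that ratio, although RPKM came from another strain.

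The other Puf4 sites were weaker. MRPS5 had 362 RPM and MRPL1 151 RPM, both in the 3′ UTR. MRPL40 had 122 RPM in the coding sequence. MRPS9, the most abundant mitoribosomal mRNA, had 2 sites of 94.97 and 29.9 RPM classed as coding, the weaker of which began 15 nt before the start codon. MRPS17 had 14.2 RPM in the coding sequence and RSM18 4.65 RPM in the 3′ UTR, at percentiles 9.99 and 6.58 of Puf4 mRNA sites. In the 3′ UTR, Puf4 had sites in 7 mitoribosomal genes (13.0%, background 8.35%) and in the coding sequence in 3 (5.56%, background 13.5%). The coding share of background genes under 1000 nt, a length most mitoribosomal genes share, was 10.3%. As a share of sites, 7 of 11 (63.6%, exact 95% interval 30.8 to 89.1) lay in the 3′ UTR, against 30.1% of all Puf4 mRNA sites. The interval takes sites as independent, although 2 of the 4 coding sites were in MRPS9, and is no test. The share of all Puf4 sites was not matched for gene length.

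**Figure D4:**
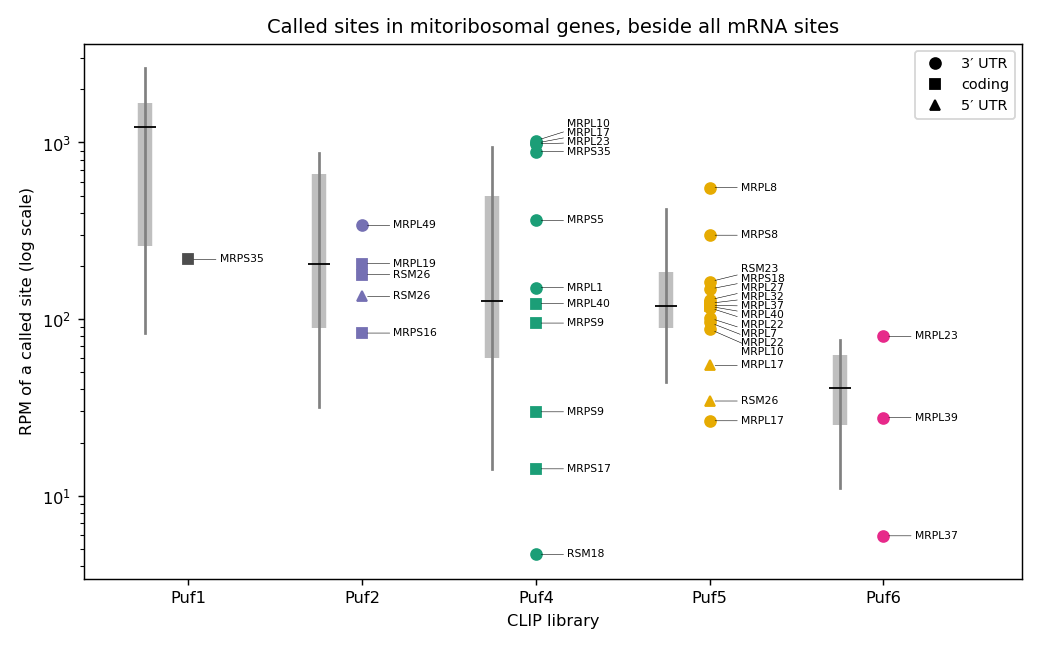
RPM (log axis) of each called site in a mitoribosomal gene by CLIP library, with the shape giving the class of the site, beside the 10th to 90th percentile (thin line), 25th to 75th percentile (thick bar) and median (dash) of all mRNA sites of that library. RPM scales differ between libraries, so heights compare only within a library: the 4 highest Puf4 sites lie between 888 and 1024 RPM, near the 90th percentile of 938 RPM, and most Puf5 sites lie near the median of 119 RPM.

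Puf5 had the most sites, 15 in 13 genes. Sites in the 3′ UTR numbered 12 of 15 (80.0%, exact 95% interval 51.9 to 95.7), against 59.0% of all Puf5 mRNA sites. By genes, 11 of 54 (20.4%) had such a site, against 17.3% of the background. The strongest was in MRPL8, a protein of a bacterial family of the large subunit, with 556 RPM (chromosome X, 315720 to 315739, minus strand), ranked 177 of 2264. MRPS8, a universal small subunit protein, followed with 299 RPM (chromosome XIII, 572772 to 572794, plus strand). RSM23, the yeast relative of the human apoptosis protein DAP3, had 163 RPM and MRPS18 had 148 RPM. The MRPS18 site covered the end of the coding sequence, from 7 nt before its last base to 14 nt after it.

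The remaining 3′ UTR sites of Puf5 were close to its median of 119 RPM or lower. MRPL27 had 129 RPM, MRPL32 123 RPM, MRPL37 119.6 RPM and MRPL7 101 RPM. MRPL32 is known as the protein whose maturation by the m-AAA protease is needed for assembly of the ribosome. MRPL22 carried 2 sites, of 116 and 95.7 RPM. MRPL10 had 87.7 RPM and MRPL17 26.6 RPM, at percentiles 24.0 and 6.23 of Puf5, so both genes with the strongest Puf4 sites were below the median in Puf5. Outside the 3′ UTR, Puf5 had 118 RPM in the coding sequence of MRPL40, 54.7 RPM in the 5′ UTR of MRPL17 and 34.4 RPM in that of RSM26.

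Puf2 had 5 sites in 4 genes. MRPL49 had 339 RPM in the 3′ UTR (chromosome X, 247017 to 247035, plus strand), ranked 443 of 1032. Coding sites were found in MRPL19 (206 RPM), RSM26 (178.6 RPM) and MRPS16 (83.4 RPM), and RSM26 also had 134.6 RPM in the 5′ UTR. RSM26 encodes a small subunit protein that resembles superoxide dismutase. The MRPL19 site shared 27 of its 31 nt with YNL184C, a gene on the same strand, so its reads could not be given to either gene. It was the only site in MRPL19, which stays in the counts of Puf2 and of any library. Puf1 had 1 site, in the coding sequence of MRPS35, with 218 RPM, at percentile 23.2 of Puf1. Puf6 had 3 sites in 3 genes, all in the 3′ UTR (exact 95% interval 29.2 to 100), where 19.6% of all Puf6 mRNA sites lay. By genes the share was 5.56% (exact 95% interval 1.16 to 15.4), against 1.49% of the background. For background genes under 1000 nt it was 2.24%. Both background shares lie inside the interval by genes, and the difference was not tested. The genes were MRPL23 with 79.9 RPM (rank 35 of 438), MRPL39 with 27.7 RPM and MRPL37 with 5.93 RPM.

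Both sites classed as the 5′ UTR of RSM26, in Puf2 and Puf5, had the same bounds (chromosome X, 618003 to 618021, plus strand). They shared 17 of their 19 nt with the leucine tRNA gene tL(UAG)J (617919 to 618019) on the same strand, in which Puf2, Puf5 and Puf6 also had sites. Whether these reads came from the tRNA or from RSM26 mRNA was not tested. Without them Puf5 had sites in 12 mitoribosomal genes, and the counts of Puf2 and of any library stayed at 4 and 24. RSM26 then had a site of Puf2 alone.

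Where 2 proteins had sites in the same gene, they overlapped in 4 pairs. In MRPL10 the Puf4 and Puf5 sites shared 26 nt, shifted by 1 nt, with 1024 RPM (percentile 92.6 of Puf4) and 87.7 RPM (percentile 24.0 of Puf5). In MRPL23 the Puf4 and Puf6 sites shared 26 nt, at percentiles 91.4 and 92.0 of their libraries. In MRPL37 the Puf5 and Puf6 sites had the same bounds (chromosome II, 741642 to 741661, plus strand), at percentiles 50.6 and 5.48. The fourth pair was that on the tRNA gene beside RSM26. In MRPL17 the Puf4 and Puf5 sites in the 3′ UTR lay 7 nt apart without overlap. In MRPL40 the coding sites of Puf4 and Puf5 lay 103 nt apart, and in MRPS35 the Puf1 and Puf4 sites lay 556 nt apart. RPM is scaled within each library, so these pairs compare by percentile and not by RPM.

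**Figure D5:**
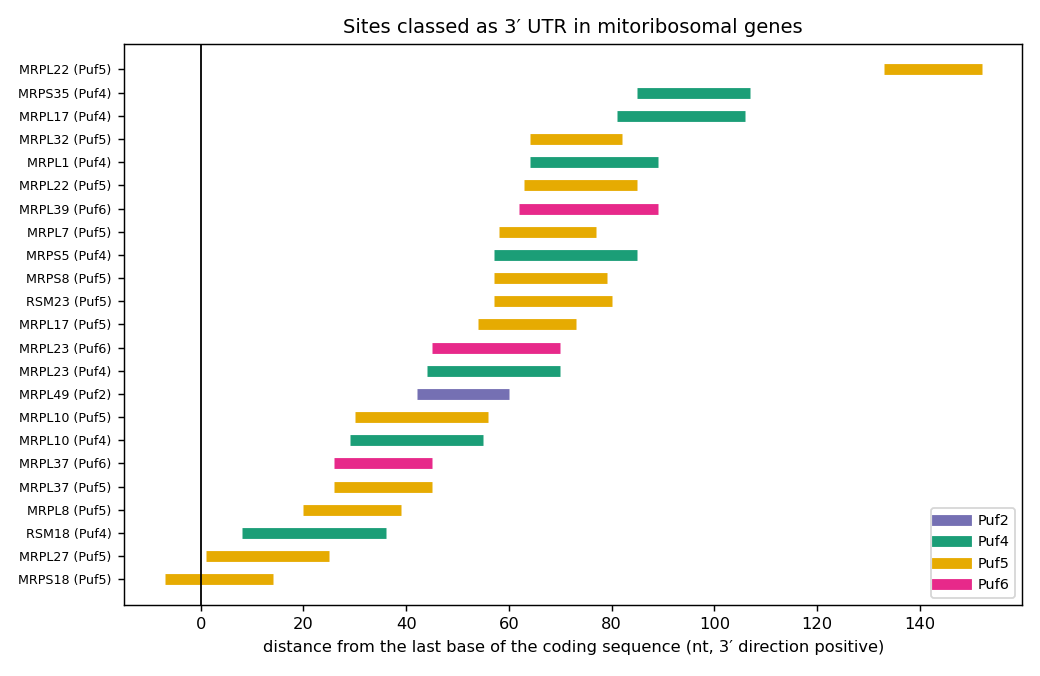
Extent of the 23 sites classed as 3′ UTR in mitoribosomal genes, as distance in nt from the last base of the coding sequence (vertical line, 0), coloured by CLIP library. The sites begin between 7 nt before and 133 nt after that base, and the sites of different libraries cover the same stretch.

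The 3′ UTR sites lay close to the coding sequence. All but 1 of the 23 began within 100 nt of its last base, the exception being the farther MRPL22 site of Puf5 at 133 nt. The median distance was 57.0 nt for Puf4 (n = 7, from 8 to 85 nt) and 55.5 nt for Puf5 (n = 12). Over all 3′ UTR sites with known gene bounds it was 60.0 nt in Puf4 (n = 533) and 66.0 nt in Puf5 (n = 1324), so mitoribosomal genes were near the rest in this respect. Distances are good to 1 nt, because no source used here says whether the deposited positions count from 0 or 1.

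The 24 mitoribosomal genes with other names were bound to a similar extent over all libraries, 10 of 24 (41.7%). The proteins differed. Puf5 had sites in 7 of them (29.2%), among them RML2 (305 RPM in the 3′ UTR), and Puf4 in 0, against 10 of 54 genes of the MRPL, MRPS and RSM families. A share of up to 14.2% is inside the exact 95% interval of that 0, and the difference was not tested. That RML2 site was at percentile 85.4 of Puf5 mRNA sites, and the Puf1 site in the coding sequence of MRP13, with 1306 RPM, at percentile 53.6 of Puf1. The list of translation factors and related genes had a site in 5 of 16 genes. Coding sites in TUF1 (1146 RPM, Puf1) and MEF2 (506 RPM, Puf4) were at percentiles 46.7 and 75.2 of their libraries. The Puf6 site in the 3′ UTR of GUF1, named after its value was seen, had 88.4 RPM and stood at percentile 97.0. For tRNA synthetases it was 3 of 13 genes, among them MSF1 (1481 RPM, Puf1, percentile 63.4) and MSM1 (136 RPM, Puf4, percentile 54.2), and for assembly factors 0 of 8.

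Nuclear genes of oxidative phosphorylation had a site in 28 of 44 cases (63.6%) and cytosolic ribosomal protein genes in 132 of 137 (96.4%). In Puf4 the shares were 18.5% for the mitoribosomal genes, 29.5% for oxidative phosphorylation and 83.2% for the cytosolic ribosome. In Puf5 they were 24.1%, 34.1% and 77.4%. Among the former were ATP1 (5671 RPM, percentile 99.6 of Puf4) and CYC7 (2276 RPM, percentile 86.2 of Puf1). Among the latter were RPS27A (12390.0 RPM) and RPL27B (6895 RPM), at percentiles 99.9 and 99.6 of Puf5. The order of these lists by share bound was also their order by median RPKM, 115, 374 and 1080, and how far level accounts for it was not tested.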

How the data were processed

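RNAs bound by 5 Puf proteins and mRNA levels in the strain labelled puf3Δ were measured. Each CLIP library came as the authors' table of binding sites, in which a site has bounds, a gene, a class (such as 3′ UTR) and an RPM value. CASAVA 1.8.2, Bowtie 0.12.7 and sacCer3 were named, per the submitters' processing notes. No source used here gives the site caller, its threshold or the UTR annotation. Levels came as a single RPKM column that the authors made from both mRNA-seq samples, with Bowtie 0.12.7 and sacCer3 named in the same notes. Of 6550 genes in it, 5893 matched the RefSeq table (assembly R64) by locus tag, and lengths there are spans of the gene that are multiples of 3 in 96.8% of background genes. Sites were counted by gene name with Python 3.11.15, pandas 2.3.3 and scipy 1.17.1, and the counting was checked on simulated tables. RPM of the called sites summed to 420200 in Puf6 and to between 838500 and 898500 in the others. Read totals of the CLIP libraries were not used. Intervals cover counting error alone and take the sites or genes of 1 library as independent.

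The genes, lists and rules were chosen with earlier results of these data known. Named were all mitoribosomal genes with a site, the 8 highest and 5 lowest by RPKM, and the 2 genes with the highest RPM at a site in each comparison list, a choice that favours libraries with large RPM values. Of the list symbols, 2 matched no gene, and VAR1, which mitochondrial DNA encodes, fell under the RPKM minimum. Alternatives changed the class of sites, the number of sites, the RPKM minimum, the pseudocount, the gene list and the overlap. Bins of length and the tRNA exclusion were added after the data were seen. A motif search in the sites was planned and not run, because no genome sequence was used here.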

Additional observations from a re-analysis of the deposited data

How the results depend on the processing

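Of the counts and levels recomputed, 60 kept their value within the limits set and 18 moved. The 60 include counts that could not change. The lowest mitoribosomal gene had 47.7 RPKM, so no minimum, or 1 of 10 RPKM, left the same genes with a site. Leaving out the RSM26 sites of Puf2 and Puf5 could not change the counts of Puf1, Puf4 or Puf6. Coding sites alone gave 7 genes in any library (13.0%), against 27.3% of the background and 20.1% of background genes under 1000 nt. They gave 3 genes in Puf4 (5.56%, background 13.5%), 1 in Puf5 (1.85%, background 9.82%) and 0 in Puf6 (background 4.51%). With 3′ UTR sites alone Puf1 had 0 genes (background 2.7%) and Puf2 had 1 (1.85%, background 4.64%). In any library it was 18 genes (33.3%, background 23.8%). With 899 sites from each library the counts were 6 for Puf4, 4 for Puf5 and 14 in any library, so the larger counts of Puf4 and Puf5 rest in part on their longer lists. The 50% of sites with the highest RPM left 0 genes for Puf1 and 1 for Puf6. Sites within the bounds of the coding sequence, by position, gave 8 genes in any library, 3 for Puf4, 2 for Puf5 and 0 for Puf6, since 3′ UTR sites lie outside them. For the equal lists, the 50% of sites and the gene bounds, no background share was computed. Whether all genes moved to the same extent at those settings was not tested. With the mitoribosomal genes of other names added (78 genes), the counts became 2 for Puf1, 20 for Puf5 and 5 for Puf6, and the shares 2.56%, 25.6% and 6.41%. The RPKM minimum, the pseudocount, the bins and the stricter overlap moved no value past the limits. Values inside the limits still changed with the bins. The number of genes at the background share ran from 20.7 to 27.0 in any library and from 2.42 to 3.66 for Puf6. These ranges lie on both sides of the observed 24 and 3. No paired analysis was possible because the 2 numbered samples were deposited as 1 joined column, which also prevents leaving out a replicate. A single CLIP library per protein and few sites per library limit every count.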

Other observations

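The lowest values of the RPKM column, multiplied by gene length in kilobases, fell on steps. Values of 0.0471 and 0.0514 recurred, and 168 of 184 values under 0.45 (91.3%) lay within 0.0005 of a sum of whole multiples of these steps. The tolerance covers 12.5% of that range. Such steps are what a plain mean of 2 libraries gives when 1 read in each is worth a different amount. The joining of the samples is not described in the sources used here. Read numbers given for single genes were obtained by dividing by either step.

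VAR1, the mitoribosomal protein encoded in mitochondrial DNA, was listed at 0.172 RPKM in this polyA RNA. Among the other mitoribosomal genes MRP13 was highest, at 318 RPKM, and MRP20 lowest, at 60.9 RPKM.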
